A study of Mus musculus with 6 samples.

Results

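AP-1 (activator protein 1) and the small Maf proteins are basic leucine zipper transcription factors, and the genes described here are those of the Fos, Jun, Atf3 and small Maf subunits. Members were taken by gene name: Fos, Fosb, Fosl1, Fosl2, Jun, Junb, Jund, Atf3, Maff and Mafk. Of these 10 names, 9 are among the 637 genes of the authors' deposited table, all of them higher in ischemia, and Fosl1 is the 1 that is not listed. The table holds only genes that the authors called at an adjusted p-value of 0.05 or less, so the missing entry gives neither the level of Fosl1 nor evidence that it stayed the same. RNA came from the hippocampus of wild type C57BL/6 mice aged 56 days. One group of 3 samples had focal middle cerebral artery occlusion (MCAO), a stroke model in which a large artery of the brain is blocked, and the other group of 3 had a sham operation. Both carry a time of 2 h, which the labels leave undefined as to occlusion or survival, and they do not say whether the 3 samples of a group were separate animals. The deposited column headings M2 and S2 were taken to mean MCAO and sham, and each direction below depends on that.

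As background, Fos proteins bind DNA mainly as dimers with a Jun protein, while Jun proteins also pair among themselves. Such dimers bind the AP-1 site TGACTCA or TGAGTCA, and dimers with ATF proteins prefer the cyclic AMP response element (CRE) TGACGTCA. In hippocampal neurons, calcium entry and MAP kinase signalling switch on several of these genes within minutes of strong stimulation, through transcription factors such as CREB and SRF that are already bound at the promoters. Small Maf proteins have no activation domain of their own, and pair with themselves or with partners such as the NRF2 and BACH factors.

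The promoters are shown to mark the core of the CRE, which 6 of the 9 members hold near an annotated start. Promoter windows were matched for 277 of the 415 genes listed as higher, and 48.5% of those windows hold that core too. Each window runs from 250 bases before the RefSeq start site to 50 after it, 300 bases in all, 5′ to 3′ on the strand of the gene. Sequences are from RefSeq on build GRCm38.p6, matched by gene symbol for 9 of 9 listed members, which have 11 annotated starts. The build differs from that of the deposited table, so the positions belong to RefSeq only. The windows lie at chr12:85473640-85473939 (+) for Fos, chr7:19309996-19310295 (-) for Fosb, chr8:84978699-84978998 (-) for Junb, chr1:191183284-191183583 (-) for Atf3, chr15:79347270-79347569 (+) for the second of 3 Maff starts and chr4:95052173-95052472 (-) for Jun. Capitals mark TGACG, the core of the CRE, on either strand (CGTCA on the other), the full CRE in Maff, and in Jun the related sequence TGACATCA.
Fos: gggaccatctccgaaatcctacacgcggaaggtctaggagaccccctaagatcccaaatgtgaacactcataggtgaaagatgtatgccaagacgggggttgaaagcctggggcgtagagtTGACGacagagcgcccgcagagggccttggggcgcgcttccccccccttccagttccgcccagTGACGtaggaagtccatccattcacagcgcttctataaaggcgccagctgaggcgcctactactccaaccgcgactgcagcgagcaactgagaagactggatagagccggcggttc
Fosb: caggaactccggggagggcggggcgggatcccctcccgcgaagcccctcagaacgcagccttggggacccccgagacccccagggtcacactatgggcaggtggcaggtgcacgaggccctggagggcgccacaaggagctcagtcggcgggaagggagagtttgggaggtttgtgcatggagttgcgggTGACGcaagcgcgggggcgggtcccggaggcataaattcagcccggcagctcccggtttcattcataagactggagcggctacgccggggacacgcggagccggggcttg
Junb: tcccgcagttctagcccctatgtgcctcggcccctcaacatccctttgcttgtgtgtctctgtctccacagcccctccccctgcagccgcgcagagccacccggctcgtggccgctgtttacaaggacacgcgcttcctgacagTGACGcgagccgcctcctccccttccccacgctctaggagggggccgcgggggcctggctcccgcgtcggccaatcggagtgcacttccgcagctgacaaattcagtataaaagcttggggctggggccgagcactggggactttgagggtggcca
Atf3: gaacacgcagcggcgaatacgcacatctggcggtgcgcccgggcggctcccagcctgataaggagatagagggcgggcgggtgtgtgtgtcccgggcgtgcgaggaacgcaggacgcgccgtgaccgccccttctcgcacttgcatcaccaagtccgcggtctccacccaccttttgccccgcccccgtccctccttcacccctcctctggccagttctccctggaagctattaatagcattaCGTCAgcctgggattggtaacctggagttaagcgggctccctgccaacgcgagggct
Maff start 2: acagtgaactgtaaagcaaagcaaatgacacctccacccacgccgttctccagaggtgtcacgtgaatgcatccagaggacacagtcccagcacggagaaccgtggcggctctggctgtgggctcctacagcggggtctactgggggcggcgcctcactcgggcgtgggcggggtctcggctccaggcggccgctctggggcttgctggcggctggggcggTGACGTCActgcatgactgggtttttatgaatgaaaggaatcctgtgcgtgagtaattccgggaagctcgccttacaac
Jun: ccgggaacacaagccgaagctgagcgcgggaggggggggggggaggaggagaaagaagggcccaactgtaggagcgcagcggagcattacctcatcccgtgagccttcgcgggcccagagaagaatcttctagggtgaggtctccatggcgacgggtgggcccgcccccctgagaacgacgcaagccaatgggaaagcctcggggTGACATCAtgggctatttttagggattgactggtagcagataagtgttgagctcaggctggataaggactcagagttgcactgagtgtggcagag

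TGACG was found in 7 of the 11 windows (63.6%), those of Fos, Fosb, Junb, Atf3, Mafk and 2 of the 3 Maff starts. It was found in 20.8% of all 32851 RefSeq windows of that length, and in 48.5% of the 363 windows of genes listed as higher. In Fos, TGACG began 129 and 66 bases before the start, in Fosb 60, in Junb 106 and in Mafk 41. In Atf3 it lay on the other strand 7 bases before the start. The full TGACGTCA was found in 1 window, 29 bases before the second Maff start, and in 1.79% of all windows. Jun had no TGACG, and TGACATCA lay 45 bases before its start, as it did before the third Maff start; 3.62% of all windows hold it on either strand. The AP-1 site was in 0 of the 11 windows and in 5.20% of all windows. The CArG box, the binding sequence of SRF searched on both strands, was in 0 of 11 and in 1.63% of all. Sequence further from the starts was not searched, so these counts do not show that the members lack either site. The sequence TATAAA on the gene's strand lay 33 bases before the Fos start and at the first base of the Junb start; 8.32% of all windows hold it. The RefSeq start lay within 30 bases of a protein-coding start of GENCODE M21 in 9 windows. In Junb the gap was 30 bases, so the distances given for Junb depend on the start used. The gap was 671 bases in Fosl2 and 1210 in Jund, so that for those genes other starts were not searched. TGACG overlaps the CRE, and a match is a run of letters and not evidence of binding.

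For each gene the authors' deposited table gives the mean normalised read count of either group, and no value of a single sample. Of the 10 gene names, 9 were called as higher and 0 as lower, where 1.47% of the 28319 genes that the authors are inferred to have tested were called as higher and 2.25% in either direction. The names were chosen with earlier results of these data known, so this contrast is a description. The median fold in the authors' deposited table was 8.42 over the 9 members and 2.10 over all 415 genes listed as higher. The median sham mean was 1023 normalised reads for the members and 943 for all genes listed as higher in that table. Of the 50 genes that were 8-fold higher or more in that table, 5 are members. Together the 9 genes gained 169677 normalised reads, 11.7% of the gain summed over the 415 higher genes, of which they make up 2.17% by number. In whole hippocampus, more RNA per cell and more cells that carry the RNA cannot be told apart.

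**Figure D1:**
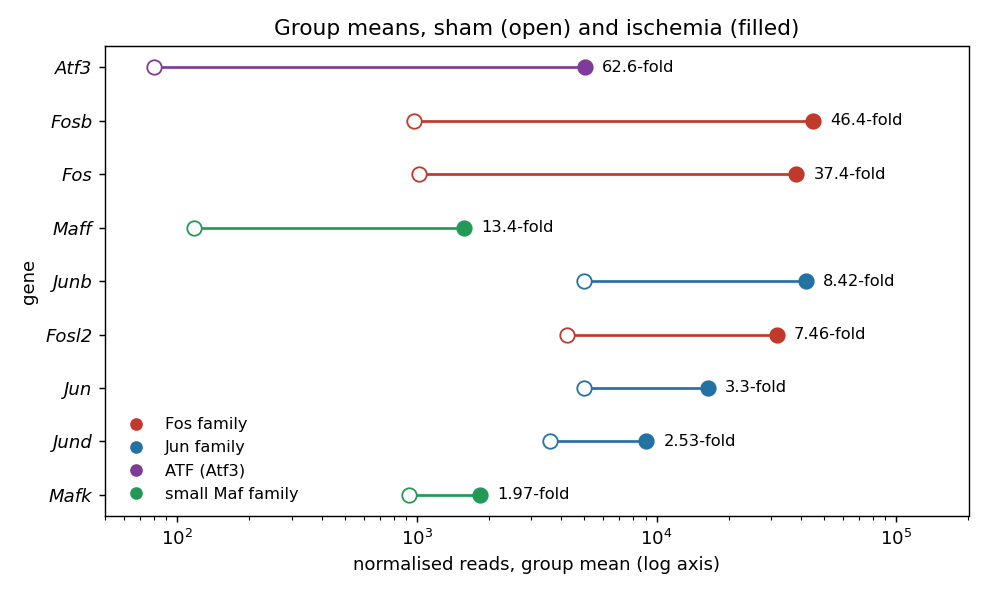
Group means of the 9 listed genes on a log axis of normalised reads, sham as open and ischemia as filled circles, with the fold beside each and colours for the subunit families. Every filled circle lies to the right of its open one, by 62.6-fold for Atf3 at the top and 1.97-fold for Mafk at the bottom; the table holds no spread between samples.

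**Figure D2:**
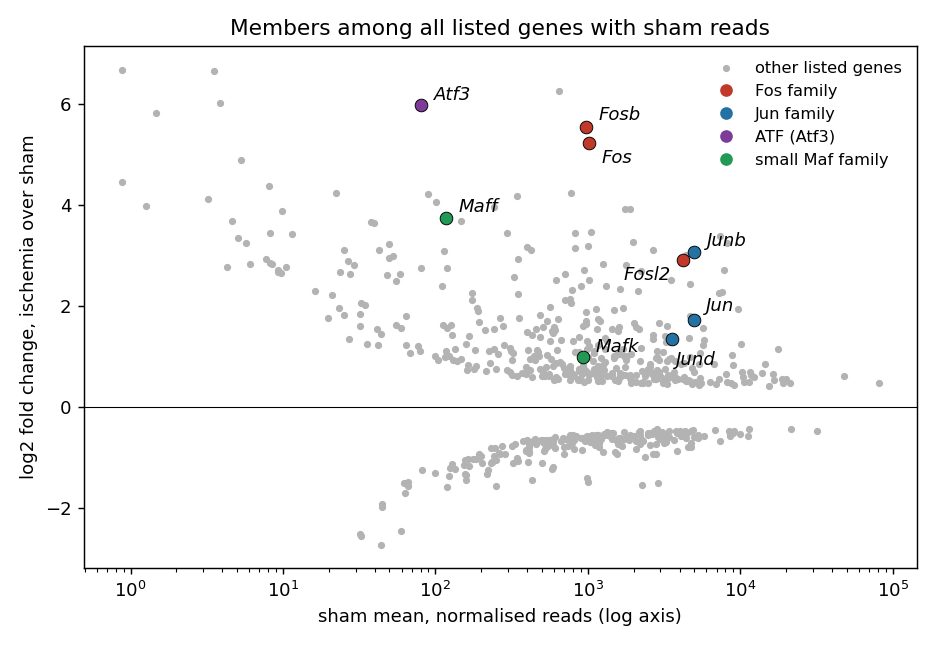
Log2 fold change (ischemia over sham) against the sham mean in normalised reads on a log axis, for the listed genes with sham reads; the members are coloured by family and named, the other genes grey. Fosb and Fos combine a sham mean near 1000 with log2 changes of 5.53 and 5.23, while the grey points with changes that large, other than Npas4 at 649 reads, lie at sham means below that of Atf3.

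Without values per sample, the error of a fold was taken from the deposited p-value: the log2 fold change divided by the normal deviate of the p-value, read as two-sided. This implied standard error (SE) holds only as far as the authors' unnamed test behaves like a normal test. For 126 listed genes of low level, whose reads per library could be separated, the implied error was a median of 1.19 times the error between libraries, with quartiles of 0.935 and 1.55. The 95% widths below are 1.96 implied SE to either side.

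The Fos family supplies the partners that need a Jun protein. The authors' deposited table has Fos at 1023 normalised reads in sham and 38253 in ischemia, 37.4-fold higher (log2 5.23, implied SE 0.42, adjusted p = 3.50e-32). Fos ranks 10 of 637 genes both by fold and by its level in ischemia. Fosb, whose shortened splice form delta-FosB is known to persist in neurons after repeated stimulation, stood at 970 in sham and 44937 in ischemia in the authors' deposited table, which is 46.4-fold (log2 5.53, implied SE 0.83, adjusted p = 1.24e-08). The table counts all Fosb forms together. Its rank by fold was 9 and by gain in reads 4, yet its p-value ranked 55, against 9 for Fos. The implied 95% width of the fold ran from 15.0 to 143 for Fosb and from 21.2 to 66.1 for Fos, so the folds of these genes overlap widely.

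Fosl2, which encodes the Fos-related protein Fra-2, already had 4244 normalised reads in sham and had 31660 in ischemia in the authors' deposited table, a fold of 7.46 (log2 2.90, implied SE 0.40, adjusted p = 4.20e-10). Its implied width, 4.31- to 12.9-fold, lay below those of Fos and Fosb without overlap. The ratio of Fosl2 to Fos, in reads, went from 4.15 in sham to 0.828 in ischemia. A change of such a ratio does not depend on transcript length.

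The Jun family can act with Fos proteins or alone. Junb, often a weaker activator than Jun that competes with it, had 4971 normalised reads in sham and 41849 in ischemia in the authors' deposited table, 8.42-fold higher (log2 3.07, implied SE 0.27, adjusted p = 4.04e-26). Jun, the founding member and a target of the JNK kinases, started at nearly the same level, 4961, and reached 16368 in that table, a fold of 3.30 (log2 1.72, implied SE 0.40, adjusted p = 0.00181). Jund, the member with the steadiest expression in most tissues, was at 3587 in sham and 9059 in ischemia in the authors' deposited table, 2.53-fold higher (log2 1.34, implied SE 0.32, adjusted p = 0.00318). The implied widths were 5.82- to 12.2-fold for Junb, 1.92- to 5.66-fold for Jun and 1.63- to 3.90-fold for Jund. That of Junb overlaps neither of the others, and those of Jun and Jund overlap. The errors of genes in the same libraries are not independent, so these differences between subunits were not tested.

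Parts of some Jun and Maf transcripts cannot be assigned with certainty. In GENCODE M21, an exon of Junb overlaps one of Prdx2 on the opposite strand by 173 bases, one of Jun overlaps its antisense gene Junos by 232, one of Jund overlaps Gm11175 by 543 and one of Mafk overlaps Tmem184a by 169. The values of these 4 genes are uncertain by an unknown amount, because the use of strand in counting was not given in the sources used here. Fos, Fosb, Fosl2, Atf3 and Maff have no such overlap in GENCODE M21. Overlaps in the BALB/cJ annotation, whose prefix most deposited identifiers carry, were not examined.

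Atf3, a stress-induced factor that pairs with Jun proteins and as a homodimer represses CRE sites, had the largest fold of the 9. In the authors' deposited table it was at 80.3 normalised reads in sham and 5027 in ischemia, 62.6-fold higher (log2 5.97, implied SE 0.47, adjusted p = 1.20e-33). The sham mean could be separated into whole reads per library, which gave 79, 80 and 94 reads in the libraries lettered A, B and C, or 90.4, 72.3 and 78.3 normalised reads (80.3 ± 9.21, SD, n = 3). The sham libraries thus lie close together, and the mean in ischemia is far above the highest of them. The ischemia mean was too high to be separated in this way.

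Maff, the small Maf gene known to respond to stress and inflammatory signals, was scarce in sham as well. In the authors' deposited table it went from 117 to 1574 normalised reads, a fold of 13.4 (log2 3.75, implied SE 0.26, adjusted p = 9.55e-42). Its separated sham libraries held 112, 145 and 111 reads, or 128, 131 and 92.5 normalised reads (117 ± 21.4, SD, n = 3). Library C was the lowest and A and B were alike; all lay far under the ischemia mean. Maff has the smallest p-value of the 9 members, rank 4 in the whole table, while its fold ranks 25.

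Mafk, its relative, had 926 normalised reads in sham and 1827 in ischemia in the authors' deposited table, 1.97-fold higher, the smallest fold of the members (log2 0.98, implied SE 0.17, adjusted p = 1.27e-06). The implied widths of Maff (9.38- to 19.2-fold) and Mafk (1.57- to 2.48-fold) do not overlap. In reads, the ratio of Maff to Mafk went from 0.127 to 0.861. The sham mean of Mafk allowed 5 sets of whole reads per library and that of Fosb 7, so no value per library is given for them.

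**Figure D3:**
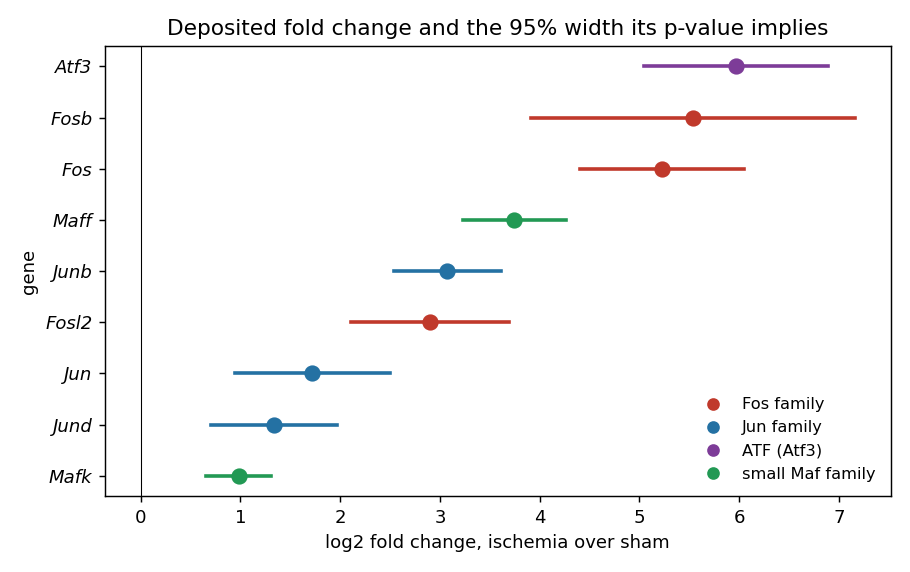
Deposited log2 fold change (ischemia over sham) of each member as a circle, with a bar of 1.96 implied standard errors to either side, coloured by family. The bars of Atf3, Fosb and Fos overlap at the top, Fosb has the widest bar, and the bars of Jun, Jund and Mafk lie lowest.

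Levels were compared between genes per kilobase of the longest GENCODE M21 transcript, from group means alone. Most deposited identifiers carry the prefix of the Ensembl BALB/cJ annotation, so the gene models used in counting may differ in length. In sham, Junb was highest with 2748 normalised reads per kb, then Jund (2150), Jun (1556), Fosl2 (649), Fos (485), Mafk (299), Fosb (256), Maff (59.9) and Atf3 (40.5). In ischemia the order per kb was Junb (23134), Fos (18147), Fosb (11882), Jund (5431), Jun (5133), Fosl2 (4843), Atf3 (2534), Maff (804) and Mafk (590). Fos moved from place 5 to 2 and Fosb from 7 to 3, while Junb stayed in place 1. Merged exons or the median protein-coding transcript as the length gave the same order in both groups. Over merged exons, though, some places in sham were near ties: Junb (2160) and Jund (2150), and Fosl2 (438) and Fos (435). Only the sham levels of Maff (59.9 ± 10.9 per kb) and Atf3 (40.5 ± 4.64) have a spread, of n = 3, and the difference between those means exceeds either SD. In ischemia, Jund, Jun and Fosl2 are within 1.12-fold of each other per kb of the longest transcript. Over merged exons they lay further apart, at 5431, 5133 and 3271. Whether such neighbours differ cannot be told from means.

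Summed over the listed Fos genes, the level per kb rose 25.1-fold, from 1391 to 34872, and over the Jun genes 5.22-fold, from 6454 to 33697. The ratio of the listed Fos family to the Jun family was therefore 0.215 in sham and 1.03 in ischemia per kb, and 0.461 and 1.71 in reads. Per kb of merged exons it was 0.175 and 0.930, so that the ratio was higher in ischemia under each length, while which family was the higher one in ischemia turns with the length used. Within the Fos family, Fosl2 made up 46.7% per kb in sham and 13.9% in ischemia, the share of Fos grew from 34.9% to 52.0% and that of Fosb from 18.4% to 34.1%. Within the Jun family, Junb went from 42.6% to 68.7%, Jund from 33.3% to 16.1% and Jun from 24.1% to 15.2%. Per kb of merged exons, the sham shares were 36.8% for Junb and 36.7% for Jund, and 42.6% for Fosl2 and 42.3% for Fos. These shares leave out Fosl1 and carry no error, since they come from 2 means.

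**Figure D4:**
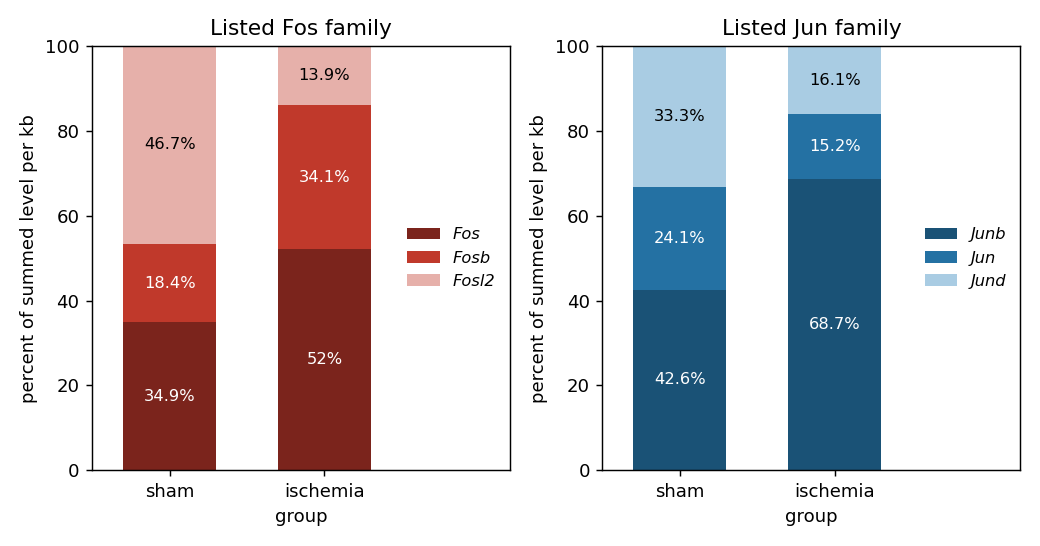
Percent of the summed level per kb that each listed gene contributes to the Fos family (left) and the Jun family (right), in sham and in ischemia. Fosl2 shrinks from 46.7% to 13.9% of the Fos family while Fos and Fosb grow, and Junb grows from 42.6% to 68.7% of the Jun family.

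Exon number and ATTTA count of the members' transcripts, which the choice of names did not use, are set beside those of other genes. All 3 Jun genes have 1 exon, and the others have 3 or 4 in their longest protein-coding transcript, against medians of 5 in genes listed as higher, 6 in genes listed as lower and 7 over 20939 protein-coding genes. The pentamer ATTTA, the core of the AU-rich elements that shorten the life of many induced mRNAs, was found in the 3′ untranslated region of all 9, from 1 in Fosb and Jund to 8 in Fosl2. It was found in 64.8% of all protein-coding genes, 82.8% of genes listed as higher and 81.5% of genes listed as lower. The median number per gene was 3 for the members, 3 for genes listed as higher, 3 for genes listed as lower and 1 for all protein-coding genes. Per kilobase of that region, the median number was 2.53 for the members, 1.98 for genes listed as higher, 1.21 for genes listed as lower and 1.22 for all protein-coding genes.

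Other genes of the pathway were taken from lists chosen by name, with earlier results of these data known. The counts below stand beside 1.47% of all tested genes called as higher and 2.25% in either direction. Of 27 further bZIP genes, mostly of the ATF, CREB, C/EBP and Batf groups with some others such as Nfil3, 3 are listed as higher, 0 as lower and 24 are not listed. The authors' deposited table has Nfil3, a repressor that binds CRE-like sites, 8.65-fold higher (adjusted p = 2.87e-10), Crem, a CREB relative with an inducible repressor form, 2.47-fold (adjusted p = 3.32e-11) and Atf4, the effector of the integrated stress response, 1.81-fold (adjusted p = 0.000869). Of 12 partners and relatives of the small Mafs, 1 is listed, as higher. This is Bach1, a repressor that pairs with them, and the authors' deposited table has it 1.82-fold higher (adjusted p = 2.08e-05).

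Of 16 gene symbols of factors that act on immediate-early promoters, 1 is listed as higher and 1 as lower. Some of these symbols are old and new names of the same gene (Mkl1 and Mrtfa, Mkl2 and Mrtfb). The authors' deposited table has Srf, which binds the CArG box, 1.94-fold higher (adjusted p = 2.13e-09) and the acetyltransferase gene Ep300 1.48-fold lower (adjusted p = 0.0048). Of 27 MAP kinase genes and kinases above them, and of 18 antioxidant genes controlled by NRF2 with small Mafs, 0 are listed. With 2.25% of all tested genes called, lists of this size would hold few calls or none, so these counts show nothing about the pathways. RNA levels say nothing about the phosphorylation of these kinases.

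Of 39 genes known as AP-1 targets, 10 are listed as higher and 0 as lower, where 1.47% of all tested genes were called as higher. The authors' deposited table gives these 10 a median fold of 9.62, beside 2.10 over all genes listed as higher. Targets were listed from general knowledge but with earlier results of these data known, so this contrast is a description. The median includes genes scarce in sham, such as Ccl2 and Cxcl2. Some of the listed genes are targets of other factors as well. The neuronal pentraxin Nptx2 was 15.1-fold higher and the monocyte chemokine Ccl2 10.8-fold in that table (adjusted p = 0.000781 and 0.00321). Cxcl2, a neutrophil chemokine, is listed at 0 in sham and at 31.8 normalised reads in ischemia in the authors' deposited table. Ccl2 was scarce in sham, with a mean of 11.4 normalised reads in the same table, and Nptx2 was not, with 1759. Whether AP-1 proteins acted on any of them was not measured.

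Markers of other cells also moved. Of 26 markers of glia, vessels and blood, 3 are listed as higher, 0 as lower and 23 are not listed. The neutrophil genes S100a8 and S100a9 were 6.78- and 12.9-fold higher in the authors' deposited table, from 10.5 and 4.64 normalised reads in sham. Of 14 neuronal and hippocampal markers, Neurod2 was 1.44-fold lower there and 13 are not listed, so the table cannot be used to check the tissue. The part of cell composition in the members' rises was not tested.

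For each member, the listed genes with the most similar pair of group means were found by the distance between log2 means over the 2 groups. Fos and Fosb were both nearest to Npas4, an activity-dependent neuronal transcription factor (distance 0.756 and 0.596), and then to Nptx2. Junb and Fosl2 were both nearest to the nuclear receptor gene Nr4a1 (0.288 and 0.178), followed by Rgs4 for Junb and Nr4a3 for Fosl2. Maff lay nearest to the microRNA gene entry Mir212 (0.235) and the kinase gene Pim1 (0.400), which were also the nearest to Atf3 but far from it (1.63 and 1.62). Jun lay near Per1 (0.208), Jund was nearest to Msmo1 and Cyp51 (0.117 and 0.180) and Mafk was nearest to Armcx5 and Ccdc184 (0.0784 and 0.128). With 2 group means per gene, such likeness describes level and fold only.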

How the data were processed

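RNA was sequenced from 3 ischemia and 3 sham samples. Bowtie 0.12.2 and build mm8 are named, without a role, per the submitters' processing notes; 612 of the 637 identifiers carry the prefix of the Ensembl BALB/cJ annotation. Counting method, normalisation and test: not given in the sources used here, nor is strandedness. Per the file headers and values, the authors deposited a read signal per gene, which is a group's mean normalised read count. They also deposited log2 fold changes and raw and adjusted p-values. The log2 fold change equals the log2 ratio of the means within 5.0e-05, with no pseudocount. Sequencing depth is unknown; the size factors found below lie between 0.837 and 1.20.

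The table has 0 columns of single samples, so the planned limma test was not run and no test was made here. The members and gene lists were chosen with earlier results of these data known. Named genes are all members, up to 4 listed genes per list with the smallest p-values, and the 2 nearest genes of each member; some genes that this rule takes are not reported here. The number of genes tested was inferred as the one whose Benjamini-Hochberg values match the deposited ones, in 636 of 637 rows at 28319.

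Means of up to 1000 were split into whole reads: a mean is a sum of whole counts times 3 steps, and integer relations among the 12 lowest means gave 1 set of steps above 0.2 per group. Of 326 sham means 203 had 1 solution, of 276 ischemia means 140, and none was without one. On simulated data (3 tables of 300 genes) the true split was returned for 895 of 895 means with 1 solution. The simulated expected means stayed well under 1000 and nearly all had 1 solution, so the simulation does not cover the highest means split here. Libraries are lettered and not linked to the replicate numbers. Gene models of GENCODE M21 (GRCm38) were matched by symbol for 564 of 581 rows with a symbol and 9 of 9 members. RefSeq promoters (GRCm38.p6) were matched by symbol for 277 genes listed as higher and 151 listed as lower, among them 9 of 9 members. Python 3.11.15, numpy 2.4.6, pandas 2.3.3, scipy 1.17.1, sympy 1.14.0 and matplotlib 3.10.9 were used.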

Additional observations from a re-analysis of the deposited data

How the results depend on the processing

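All 9 members remained among the calls at an adjusted p of 0.01 and with a mean of at least 50 in both groups; thresholds of adjusted p of 0.001 and of log2 fold change of at least 1 left 7 and 8. Adding 1 or 10 to both means moved each log2 fold change by less than its implied standard error. Leaving out each sham library in turn gave 5.90 to 6.06 for Atf3 and 3.60 to 3.83 for Maff. This could not be run for the sham libraries of Fosb and Mafk, whose means have several splits. The other members' sham means and all members' ischemia means were above the limit of 1000 and were not split. Ranks by fold depend on which genes are ranked. Among the 572 genes with means of at least 50, Atf3 moved from 7 to 2, Fosb from 9 to 3, Fos from 10 to 4, Maff from 25 to 12, Junb from 49 to 26, Fosl2 from 55 to 31 and Jun from 121 to 76, since scarce genes with large folds drop out. With a pseudocount of 1, Atf3 ranked 3. Over merged exons, Fosb fell from 11882 to 7198 normalised reads per kb in ischemia and from 256 to 155 in sham. No paired analysis was possible because the deposited values are group means that carry no replicate number. Depth limits the sham values of Atf3 and Maff, which rest on 253 and 368 reads in all.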

Other observations

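The CRE was also counted at the start sites of the listed genes that could be matched to RefSeq windows. These were 277 of the 415 genes listed as higher and 151 of the 222 listed as lower, and the rest were not searched. The full TGACGTCA was found in 31 of 363 windows (8.54%) of genes listed as higher, in 1 of 190 windows (0.526%) of genes listed as lower and in 1.79% of all RefSeq windows. Its core TGACG, which the full site holds, was found in 48.5%, 24.7% and 20.8% in the same order. For the AP-1 site TGACTCA or TGAGTCA the shares were 3.03%, 4.21% and 5.20%, and for the CArG box 3.03%, 0.526% and 1.63%. These shares are descriptions without a test. Several windows can belong to 1 gene, and all windows include genes that are not expressed in the hippocampus and noncoding genes. The median share of G and C was 61.3% over the members' windows and 52.7% over all windows, and its part in the counts of TGACG was not tested.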
